A study of Mus musculus with 12 samples.

Results

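The genes described here are 8 members of the ATP-binding cassette (ABC) family that export drugs or conjugates from cells, namely Abcb1a, Abcb1b, Abcb4, Abcc1, Abcc3, Abcc4, Abcc5 and Abcg2. They were chosen by name, as the efflux pumps best known from drug resistance and their close relatives, and all 8 had a row among the 21743 genes of the deposited table. The data are single-cell RNA counts by Drop-seq, a droplet method that tags the 3′ end of each RNA molecule with a cell barcode and a unique molecular identifier (UMI). Mammary gland cells and tumor cells came from the same 2 mice, which carried MMTV-Cre with Brca1 floxed on both alleles on a mixed strain background of 129/Sv and C57BL/6. MMTV-Cre is active mainly in mammary epithelium, so the floxed gland is shared by every group and no wild-type library was included here. Gland cells of mouse 1 (MG1) gave 2 libraries, gland cells of mouse 2 (MG2) 2, the tumor of mouse 1 (MT1) 5 and the tumor of mouse 2 (MT2) 3. The study's methods state that hematopoietic and endothelial cells were depleted before loading.

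ABC efflux pumps use ATP to move lipids, conjugates and drugs out of the cell, and drug-resistant tumor cells are known to raise some of them. Abcb1a and Abcb1b together encode P-glycoprotein in the mouse, a pump for taxanes, anthracyclines and many other hydrophobic drugs, while their neighbour Abcb4 encodes a phospholipid floppase of the bile canaliculus. Abcc1 (MRP1) exports glutathione conjugates, Abcc3 (MRP3) glucuronide conjugates, and Abcc4 and Abcc5 export cyclic nucleotides and nucleoside analogs. Abcg2 is the breast cancer resistance protein, a pump of the mammary epithelium, the placenta and the capillary endothelium that also moves riboflavin into milk.

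Abcb1a (chr5:8660077-8748575), Abcb1b (chr5:8798147-8866315) and Abcb4 (chr5:8893717-8959231) lay next to each other on the plus strand in the GENCODE M21 annotation of GRCm38. The other members were Abcg2 (chr6:58584523-58695676, plus strand), Abcc3 (chr11:94343295-94392997, minus), Abcc4 (chr14:118482692-118706219, minus), Abcc1 (chr16:14361558-14475737, plus) and Abcc5 (chr16:20331303-20426394, minus), all protein coding. Because Abcb1a, Abcb1b and Abcb4 are close paralogs, the sequence they share was counted in windows of 50 bases. Over its longest coding transcript, 18.04% of the Abcb1b windows also occurred in an Abcb1a transcript, but in the last 500 bases, from which 3′ tags mostly come, only 3.10% did. No window in the last 500 bases of Abcb1a occurred in Abcb1b or Abcb4. For Abcb4, 11.1% of the windows in its last 500 bases occurred in Abcb1a and as many in Abcb1b, so Abcb4 counts are the least certain of the 3. Annotated transcripts also overlapped Abcb1a, Abcb1b and Abcb4 (2, 2 and 1 of them with a row in the table), and whether the counting used strand is not given in the sources used here.

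The promoters of these neighbours are shown because Abcb1a and Abcb1b rose together in the tumors, as described below with their values. Each window holds 250 bases before and 50 bases after the start given by RefSeq on GRCm38.p6, read 5′ to 3′ on the plus strand. Capitals mark exact matches, on either strand, to CCAAT, to the GC box GGGCGG, to TATAAA or to the AP-1 site TGANTCA.
Abcb1b, chr5:8797897-8798196: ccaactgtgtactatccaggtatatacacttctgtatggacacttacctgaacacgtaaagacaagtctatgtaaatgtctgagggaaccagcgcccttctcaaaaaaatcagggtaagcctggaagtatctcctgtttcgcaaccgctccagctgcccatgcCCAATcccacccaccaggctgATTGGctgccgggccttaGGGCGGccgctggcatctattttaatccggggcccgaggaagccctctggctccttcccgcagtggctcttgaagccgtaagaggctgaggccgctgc
Abcb1a, chr5:8566841-8567140: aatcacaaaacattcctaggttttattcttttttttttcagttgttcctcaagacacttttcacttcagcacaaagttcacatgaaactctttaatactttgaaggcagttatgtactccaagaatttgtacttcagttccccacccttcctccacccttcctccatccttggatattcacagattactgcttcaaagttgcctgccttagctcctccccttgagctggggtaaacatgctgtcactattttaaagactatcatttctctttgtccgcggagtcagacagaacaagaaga
Abcb4, chr5:8893471-8893770: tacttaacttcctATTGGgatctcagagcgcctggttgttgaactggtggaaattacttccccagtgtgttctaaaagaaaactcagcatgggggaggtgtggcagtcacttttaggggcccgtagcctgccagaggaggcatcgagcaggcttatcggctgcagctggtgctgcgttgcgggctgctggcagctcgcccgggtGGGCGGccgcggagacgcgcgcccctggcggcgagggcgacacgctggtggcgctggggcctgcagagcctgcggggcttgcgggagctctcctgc
In the Abcb1b window CCAAT began 87 bases before the start, its reverse complement 66 bases before it and a GC box 48 bases before it. The Abcb4 window held the reverse complement of CCAAT 237 bases before the start and a GC box 46 bases before it. None of the letters searched occurred in the Abcb1a window, whose RefSeq start lies far upstream of the GENCODE start of the gene given above. Which start these cells use was not determined, and the bases around the GENCODE start were not searched. Of 32851 RefSeq promoter windows of the same length, 37.4% held CCAAT, 35.7% the GC box, 13.6% TATAAA and 7.81% the AP-1 letters, so these matches were common ones.

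The table held 21157 cells and 75048028 UMIs, with 693333 to 14841414 UMIs in a library and at least 800 genes in every cell. MG1 replicate 2 was the smallest library, with 105 cells. Clustering without the members among the variable genes gave 11 clusters. Of these, 3 were stromal (fibroblast-like, endothelial-like and immune-like, 1125 cells), 3 were gland classes (luminal secretory-like, luminal hormone-sensing-like and basal-like), and 5 were made up mostly of tumor cells. In MT1 the tumor cells fell into epithelial-like clusters 3 and 4 and the unnamed cluster 5, led by Prl2c3 and Cav1. In MT2 they fell into the unnamed clusters 1 and 2, of which the latter was led by cell division genes. MT2 cells carried little Epcam, and less Krt8 and Krt18 than the other groups. Epcam reached only 9.20 to 24.0 CPM (UMIs scaled to a common library total with TMM factors) in its libraries. It was at 1666 to 1991 in MT1, 2742 to 3740 in MG1 and 3563 to 3668 in MG2. Krt8 was at 294 to 331 and Krt18 at 371 to 555 CPM in MT2, against 2645 to 2858 and 2119 to 2563 in MG2. Vim stood at 3856 to 4059 in MT2 and 878 to 1978 in MT1, against 180 to 302 in MG2 and 132 to 155 in MG1. Brca1 itself was at 0 in both MG1 libraries and ranged from 1.92 to 2.58 CPM in MG2, from 7.81 to 16.4 in MT1 and from 9.06 to 11.7 in MT2. A 3′ tag outside the floxed exons cannot check its deletion. Tests below used the 20032 cells outside the stromal clusters, summed per library. Since each group is one tissue of one mouse, the p-values measure the spread between libraries and not between animals.

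Outside the stromal clusters the P-glycoprotein genes were higher in the tumor than in the gland in both mice, modestly in MT1 and by orders of magnitude in MT2. With all cells kept, stroma included, the log2 fold change of Abcb1a was -0.61 in MT1 and 4.48 in MT2, and that of Abcb1b 0.88 and 6.42. In MT1 nearly all UMIs of both genes lay in cluster 5, as given below. Abcb1a stood at 1.25 and 1.73 CPM in the MG1 libraries and at 4.70, 6.67, 6.25, 4.69 and 9.32 in the MT1 libraries. The gene stood at 1.20 and 1.17 in MG2 and at 185, 184 and 186 in MT2. No tumor library overlapped the gland libraries of its mouse, and the MT2 libraries lay close to each other. The log2 fold change was 2.22 ± 0.52 (SE) for MT1 against MG1 (edgeR adjusted p = 0.00147) and 7.26 ± 0.29 for MT2 against MG2 (edgeR adjusted p = 3.51e-13).

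Abcb1b had more UMIs than any other member, 34521 over all cells. It measured 3.33 and 12.1 CPM in MG1, 17.6, 12.2, 14.1, 13.3 and 21.0 in MT1, 6.71 and 8.69 in MG2, and 876, 863 and 825 in MT2. The highest MG1 library nearly touched the lowest MT1 library, whereas the MT2 libraries stood far from every other. Abcb1b rose by a log2 fold change of 1.54 ± 0.40 in MT1 (edgeR adjusted p = 0.00325) and of 6.79 ± 0.29 in MT2 (edgeR adjusted p = 7.93e-13). The calls in MT1 were lost without MG1 replicate 1, which left 1 MG1 library of 71 cells. The log2 fold change was then 1.98 for Abcb1a (edgeR adjusted p = 0.141) and 0.46 for Abcb1b (edgeR adjusted p = 0.506), with the remaining MG1 library assumed to vary like the other groups. With Abcb1a, Abcb1b and Abcb4 summed to 1 row, swaps of counted reads among them do not enter. The log2 fold change was then 1.70 ± 0.37 in MT1 and 6.87 ± 0.29 in MT2. Reads matching several of these genes may have been dropped before counting, and the sum cannot restore them.

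**Figure D1:**
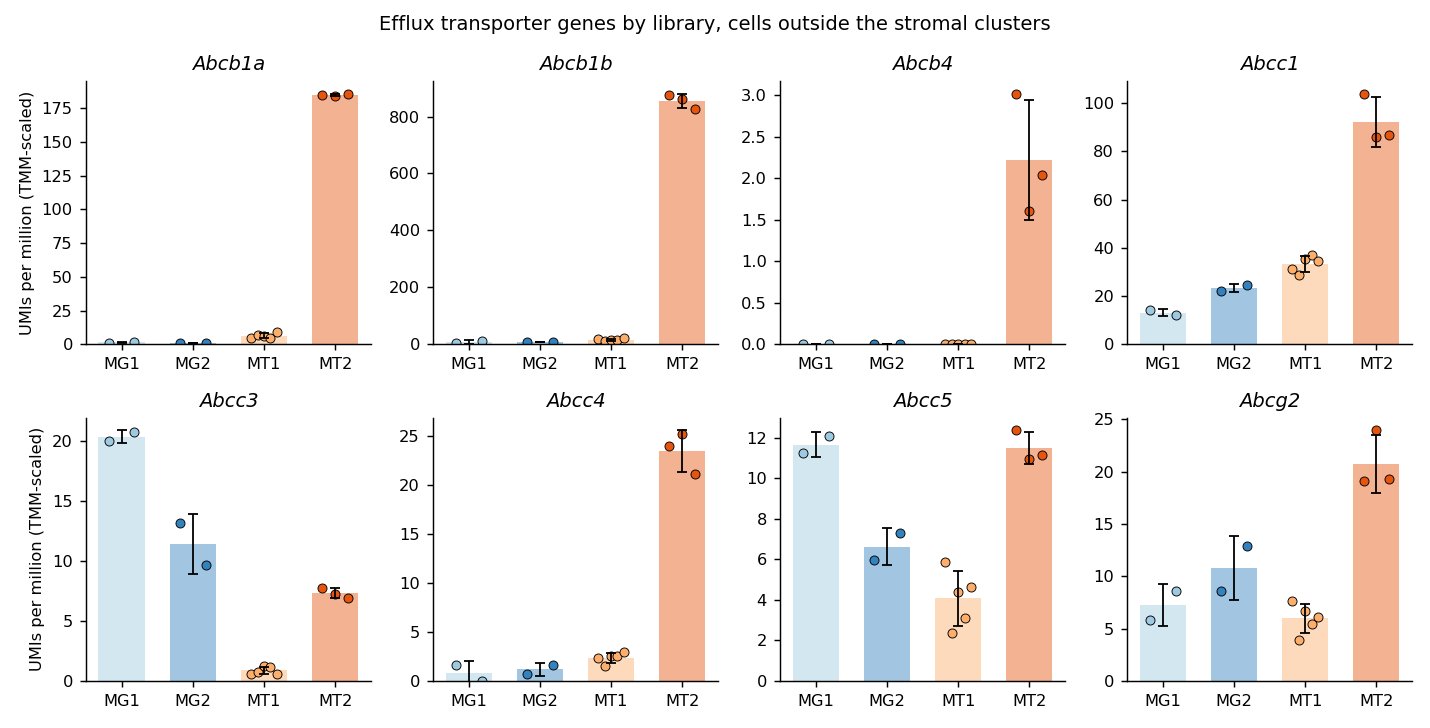
CPM, scaled by TMM, of each transporter gene in the cells outside the stromal clusters. Points are libraries, bars are group means and error bars are SD (n = 2 for MG1 and MG2, 5 for MT1, 3 for MT2). The vertical scales differ between genes. MT2 stands above the other groups for Abcb1a and Abcb1b, while Abcc3 is highest in MG1.

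Abcb4 was the rarest member, with 120 UMIs in all cells. Outside the stromal clusters its count was 0 in all libraries of MG1, MG2 and MT1, and 88 UMIs were found in MT2, at 2.22 ± 0.72 CPM (SD, n = 3). A total of 0 allows up to 3 counts over the group. Set against this limit, MT2 was at least 2.22-fold higher than MG1, 6.29-fold higher than MG2 and 14.3-fold higher than MT1. Abcb4 did not pass the filter on low counts and was not tested, so 7 of the 8 members entered the tests.

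Among the conjugate and nucleotide pumps, Abcc1 was higher in both tumors and Abcc4 in that of mouse 2, while the call for Abcc4 in mouse 1 depended on few gland cells. Abcc1 measured 14.2 and 12.1 CPM in MG1, 31.1, 28.6, 35.3, 37.2 and 34.4 in MT1, 22.0 and 24.4 in MG2, and 104, 85.9 and 86.7 in MT2. Gland and tumor libraries did not overlap in either mouse. Its log2 fold change was 1.30 ± 0.23 in MT1 (edgeR adjusted p = 9.39e-05) and 1.99 ± 0.17 in MT2 (edgeR adjusted p = 1.05e-08).

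Abcc4 measured 1.66 and 0 CPM in MG1 and 2.35, 1.57, 2.50, 2.54 and 2.91 in MT1, and the ranges overlapped. It measured 0.72 and 1.64 in MG2 against 24.0, 25.3 and 21.2 in MT2. Abcc4 rose in MT2 by a log2 fold change of 4.28 ± 0.33 (edgeR adjusted p = 2.78e-09), and the value in MT1, 0.87 ± 0.63, did not pass (edgeR adjusted p = 0.270). All 4 Abcc4 UMIs of MG1 outside the stromal clusters came from gland cells that clustered with tumor cells. Without the 61 gland cells of that kind MG1 was at 0, and Abcc4 was then called higher in MT1 too (edgeR adjusted p = 0.00197), as with luminal gland cells only (edgeR adjusted p = 0.00361).

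Abcc3 and Abcc5 did not follow this pattern. Abcc3 measured 20.0 and 20.7 CPM in MG1 and 0.59, 0.78, 1.25, 1.17 and 0.58 in MT1. In mouse 2 it measured 13.2 and 9.63 in the gland and 7.74, 7.28 and 6.92 in the tumor. The fall in MT1 was a log2 fold change of -4.34 ± 0.33 (edgeR adjusted p = 1.03e-08). The fall in MT2 was -0.64 ± 0.23 (edgeR adjusted p = 0.0207). This call was lost without MG2 replicate 1 (log2 fold change -0.20), MG2 replicate 2 (-0.63) or MT2 replicate 3 (-0.62). It was also lost without MT1 replicate 1, 2 or 5 (each -0.50), libraries fitted together with these groups. Other settings that lost it were DESeq2 (adjusted p = 0.0655), no filter on low counts (edgeR adjusted p = 0.0558) and all cells (edgeR adjusted p = 0.0569). Over all alternatives the log2 fold change stayed between -0.83 and -0.20.

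Abcc5 measured 11.2 and 12.1 CPM in MG1 and 5.87, 2.35, 4.37, 3.13 and 4.66 in MT1, and 5.99 and 7.28 in MG2 and 12.4, 10.95 and 11.2 in MT2. The tumor lay below the gland in mouse 1 and above it in mouse 2. It fell by 1.53 ± 0.33 on the log2 scale in MT1 (edgeR adjusted p = 0.000745) and rose by 0.79 ± 0.26 in MT2 (edgeR adjusted p = 0.0111). Without MG1 replicate 1 the value in MT1 was -1.49 (edgeR adjusted p = 0.0568).

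Abcg2 measured 5.83 and 8.64 CPM in MG1 and 7.63, 3.92, 6.72, 5.48 and 6.12 in MT1, and these ranges overlapped. In mouse 2 it measured 8.62 and 12.9 in the gland and 19.1, 24.0 and 19.3 in the tumor. Abcg2 rose in MT2 by a log2 fold change of 0.94 ± 0.23 (edgeR adjusted p = 0.00140), while the value in MT1 was -0.12 ± 0.38 (edgeR adjusted p = 0.848). With the stromal clusters kept, the rise in MT2 was 0.32 (edgeR adjusted p = 0.146) and MT1 was lower than MG1 by a log2 fold change of -0.93 (edgeR adjusted p = 0.00400).

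Of the 7 members tested, 3 were higher and 2 lower in MT1 than in MG1, where 32.2% of 13641 genes were called higher and 27.1% lower. In MT2 against MG2, 6 were higher and 1 lower, where 32.8% of genes were called higher and 34.2% lower. The change differed between the mice for 5 of the 7 members, each lower in mouse 1. These were Abcb1a (difference of log2 fold changes -5.04 ± 1.01, edgeR adjusted p = 0.000597), Abcb1b (-5.25 ± 0.65), Abcc3 (-3.70 ± 0.41), Abcc4 (-3.42 ± 0.95) and Abcc5 (-2.32 ± 0.42). Over all genes, 26.4% had a difference called higher and 17.1% lower in mouse 1. For Abcc1 (-0.68 ± 0.29, edgeR adjusted p = 0.0646) and Abcg2 (-1.06 ± 0.45, edgeR adjusted p = 0.0656) the difference did not pass, and this was sensitive to the processing, since call and direction were kept in 11 of 21 alternatives for Abcc1 and in 15 of 21 for Abcg2. Both passed with RLE size factors (-0.82 and -1.21), DESeq2 (-0.82 and -1.23), all cells (-0.94 and -1.25), without MG2 replicate 2 (-0.92 and -1.55) and without MT1 replicate 1 (-0.78 and -1.24). Abcc1 also passed without MT1 replicate 2 (-0.75), without MT1 replicate 5 (-0.81) and without the gland cells in tumor clusters (-0.83). Over all alternatives, the later refits of cluster 5 among them, the value ranged from -1.50 to 0.61 for Abcc1 and from -1.95 to -0.67 for Abcg2. For Abcc4 the difference had the opposite sign without the gland cells that clustered with tumor cells (2.63), with luminal gland cells only (2.41) and without MG1 replicate 1 (2.60). In those fits MG1 had no Abcc4 UMI, so the values depend on the prior count and are no measure of size. Without MG1 replicate 1 the difference for Abcb1a was -5.32 (edgeR adjusted p = 0.0542).

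**Figure D2:**
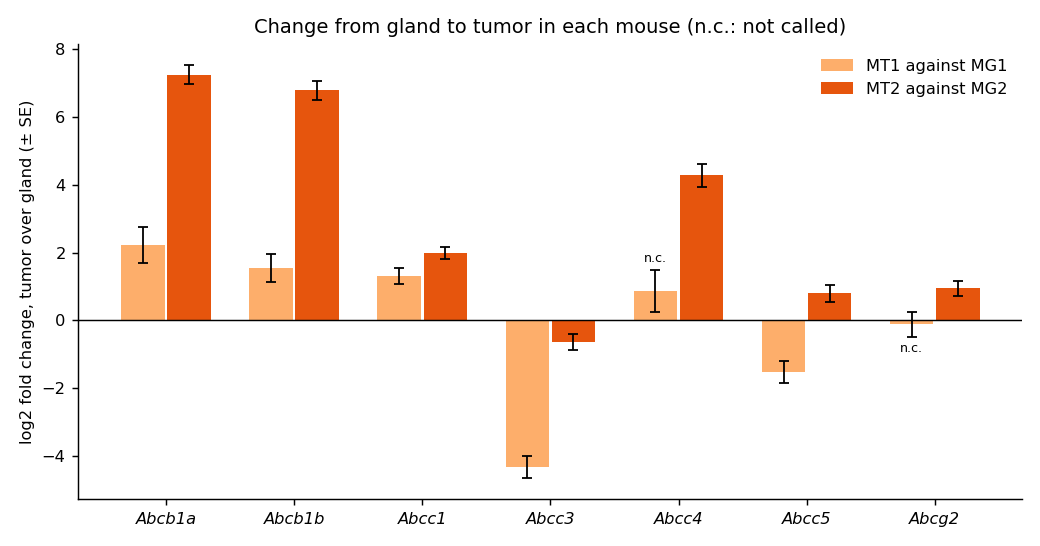
Log2 fold change from gland to tumor (vertical axis) in mouse 1 and mouse 2 for the 7 tested members, with SE from edgeR's quasi-likelihood fit (n = 2 against 5 and 2 against 3 libraries). Abcb1a and Abcb1b reach 7.26 and 6.79 in mouse 2, Abcc3 falls in both and Abcc5 has opposite signs, and n.c. marks the values that were not called.

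Set side by side, the tumors differed in every tested member. All 7 were lower in MT1 than in MT2, where 33.1% of genes were called lower and 35.3% higher. The log2 fold change was -5.79 ± 0.18 for Abcb1b, -4.86 ± 0.16 for Abcb1a, -3.26 ± 0.21 for Abcc4, -2.88 ± 0.27 for Abcc3, -1.80 ± 0.19 for Abcg2, -1.53 ± 0.21 for Abcc5 and -1.45 ± 0.12 for Abcc1. The edgeR adjusted p was at most 3.85e-06. A fit of tumor against gland with 1 sum per group, paired by mouse, called no member and 0% of 14943 genes with edgeR (2221 at an unadjusted p under 0.05). DESeq2 on those sums called 1371 genes and 2 members, Abcb1a and Abcb1b.

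The shares of cells with at least 1 UMI were also highest in MT2 for Abcb1a, Abcb1b and Abcc1. An Abcb1b UMI was found in 86.3% ± 5.14 of the MT2 cells outside the stromal clusters (SD over 3 libraries), in 3.37% ± 0.51 in MT1 (n = 5), in 2.76% ± 0.71 in MG2 (n = 2) and in 3.32% ± 3.27 in MG1 (n = 2). With every cell thinned to 1000 UMIs, which left out no cell, the share was 52.5% ± 0.78 in MT2 and 1.46% ± 0.32 in MT1. For Abcb1a the share was 46.0% ± 9.28 in MT2, 1.47% ± 0.38 in MT1, 0.43% ± 0.07 in MG2 and 0.96% ± 0.64 in MG1, and thinned to 1000 UMIs it was 0.40% ± 0.22 in MT1 and 0.70% ± 1.00 in MG1. For Abcc1 it was 29.9% ± 9.03 in MT2, 7.81% ± 0.94 in MT1, 7.98% ± 0.79 in MG2 and 6.21% ± 1.18 in MG1. The median depth of these cells was 3141 UMIs in MT2, 2121 in MT1, 2486 in MG2 and 3588 in MG1. Of the 9764 MT2 cells in clusters 1 and 2, 3881 had UMIs of both Abcb1a and Abcb1b, 4440 of Abcb1b alone, 403 of Abcb1a alone and 1040 of neither. Among the cells with Abcb1a, 90.6% also had Abcb1b, against 85.2% of all these cells. These shares pool libraries of unlike depth and were not thinned, so they are no measure of joint expression. The median cell held 2 Abcb1b UMIs and the richest 40.

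By cell class, the P-glycoprotein genes of the gland were low in luminal cells. Abcb1a was highest in endothelial-like cells in both mice, and Abcb1b was higher in basal-like and stromal cells than in luminal cells. The endothelial-like cells, 108 of the gland cells and 3.43% of them, held 78.4% of the gland Abcb1a UMIs and 38.2% of the gland Abcg2 UMIs. Abcb1a reached 226 CPM there (95% Poisson interval 181 to 279) and Abcg2 205 (163 to 256). Both genes are known from capillary endothelium, where they form part of the blood-brain barrier. In luminal secretory-like cells of the gland Abcb1a was at 1.46 (0.59 to 3.01), and in hormone-sensing-like cells at 0.59 (0.12 to 1.73). An Abcb1a UMI was found in 38.6% of the MG2 endothelial-like cells (median depth 2417) and in 0.43% of the MG2 luminal secretory-like cells (median depth 2503). Levels by class are CPM of the class's own UMI total, not scaled by TMM, and intervals of this kind cover counting error only. Abcc4 was at 28.6 (14.3 to 51.1) in endothelial-like cells, the highest among gland classes of over 100 cells, but only 11 UMIs were counted. This cluster also carried smooth muscle genes, and 7 of the 10 basal and 2 of the 5 mural list markers were raised in it.

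The comparison of Abcb1a in mouse 1 turned when the stromal clusters were added back together. With all cells kept, Abcb1a in MT1 against MG1 had a log2 fold change of -0.61 (edgeR adjusted p = 0.0740), against 2.22 without stroma. Of the 36 Abcb1a UMIs of MG1, 23 were in endothelial-like and 9 in fibroblast-like cells, and the part of each class alone was not tested. In the endothelial-like cells of the tumors Abcb1a was at 32.9 CPM in MT1 (7 UMIs in 91 cells) and at 193 in MT2 (26 UMIs in 46 cells), where the MT2 tumor libraries themselves stood at 184 to 186. Whether RNA set free from tumor cells adds to the MT2 value was not tested. Abcg2 in the same cells was at 155 in MT1 and 81.5 in MT2.

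Abcb1b in the gland, both mice pooled, was at 42.0 CPM in basal-like cells (29.7 to 57.6), a class that made up 10.3% of the gland cells and held 32.2% of their Abcb1b UMIs. It was at 3.13 (1.75 to 5.16) in luminal secretory-like and 2.56 (1.36 to 4.38) in hormone-sensing-like cells. Basal-like cells did not stand apart from the stromal classes within a mouse. In MG2 Abcb1b was at 45.9 in basal-like, 44.99 in fibroblast-like and 25.4 in endothelial-like cells, and in MG1 at 34.7, 19.3 and 42.6, the last from 3 UMIs. The order of the P-glycoprotein genes differed between classes. Basal-like cells of MG2 held 27 Abcb1b and 2 Abcb1a UMIs, whereas endothelial-like cells of MG2 held 8 and 64.

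Abcc3 was a transcript of the luminal hormone-sensing-like cells. These made up 37.8% of the gland cells and held 85.4% of the Abcc3 UMIs, at 26.4 CPM (22.1 to 31.3), against 4.59 (2.87 to 6.95) in luminal secretory-like cells. None was counted in 324 basal-like or 108 endothelial-like gland cells. Hormone-sensing-like cells numbered 68 in MT1, where Abcc3 was at 23.9 CPM (4 UMIs), and no cell of MT2 fell into this class. Abcc3 was nevertheless at 7.64 ± 0.22 CPM in cluster 1 and 6.33 ± 0.72 in cluster 2 of MT2 (SD, n = 3), and the part that the share of this class plays in the falls was not tested.

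Outside cluster 5, Abcc1 was spread over the gland classes of over 100 cells, from 17.0 CPM (both mice pooled) in hormone-sensing-like to 46.9 in fibroblast-like cells. Abcc5 was at 5.79 in MG1 and 4.18 in MG2 in luminal secretory-like cells, and at 19.3 and 11.2 in fibroblast-like cells. Basal-like cells were at 18.95 and 8.50 for this gene. Hormone-sensing-like cells of both mice pooled were at 10.5 (7.83 to 13.7). The endothelial-like value of Abcc5 was 0 in MG1 (20 cells) and 19.1 in MG2 (6 UMIs). Abcg2 was nearly equal in the luminal classes, at 9.86 and 10.0.

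**Figure D3:**
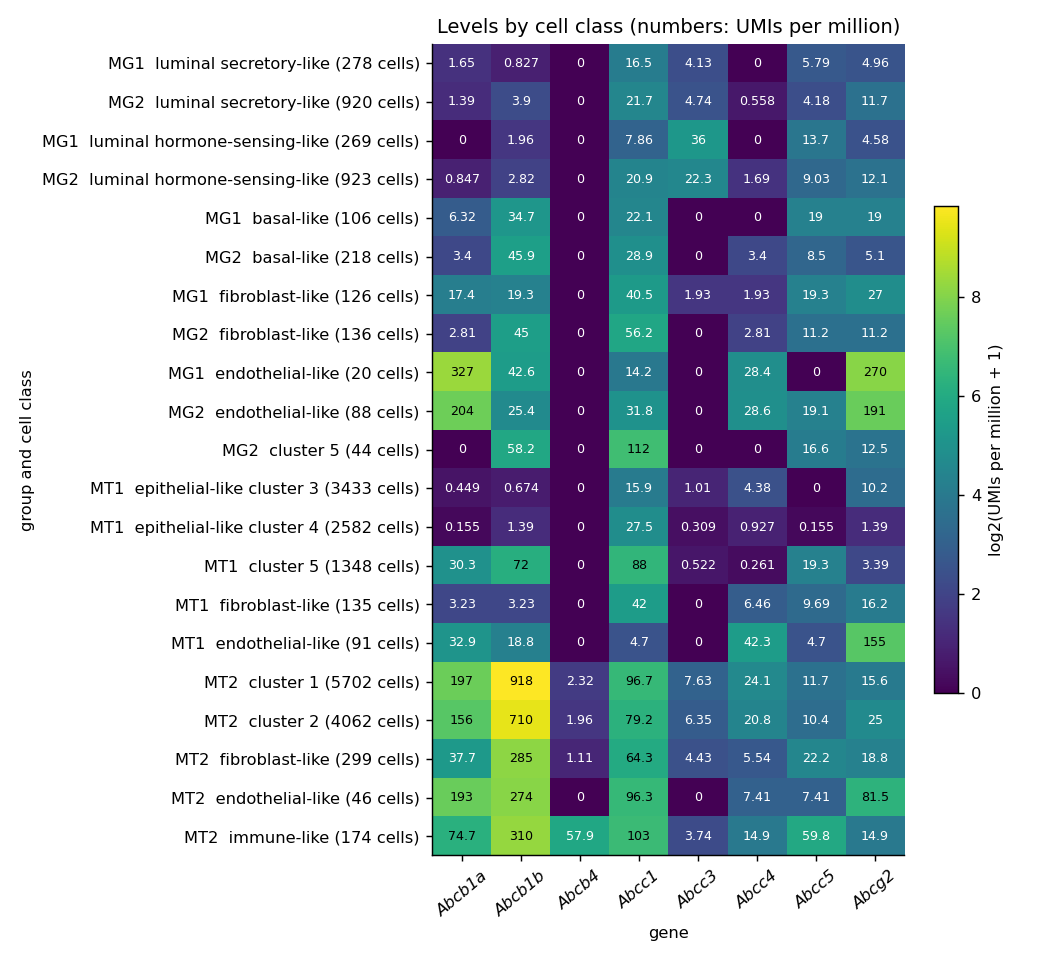
CPM of each member (columns) in the main cell classes of each group (rows, with their cell numbers; the 68 hormone-sensing-like and 26 secretory-like cells of MT1 are not drawn), pooled over the libraries of the group, not scaled by TMM and coloured on a log2 scale with 1 added. Values across genes are counts of 3′ tags and are not scaled to length. Among the gland rows, endothelial-like cells stand out for Abcb1a and Abcg2 and hormone-sensing-like cells for Abcc3. All MT2 rows stand out for Abcb1b, and clusters 1 and 2 of MT2 are also high for Abcb1a (197 and 156).

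In MT1 the efflux genes were split between tumor clusters. Cluster 5, with 1348 MT1 cells, held 276 of the 291 Abcb1b UMIs of MT1 outside the stroma and 116 of the 121 of Abcb1a, yet it made up 17.7% ± 4.80 of those cells (SD, n = 5). In cluster 5 of the MT1 libraries Abcb1b was at 75.2 ± 12.5 CPM (SD, n = 5, range 61.4 to 91.7), and in epithelial-like clusters 3 and 4 of the same libraries at 1.05 ± 0.77 (range 0 to 1.84). Abcb1a was at 31.6 ± 11.8 and 0.42 ± 0.43. No library overlapped between the clusters for either gene. An Abcb1b UMI was seen in 17.2% of the cluster 5 cells, 0.15% of cluster 3 and 0.35% of cluster 4, with median depths of 2329, 2096 and 2058 UMIs. These are descriptions, since the clusters were drawn from the same cells.

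Abcc1 was at 87.4 ± 9.37 CPM in cluster 5 and at 20.4 ± 1.27 in clusters 3 and 4, and Abcc5 at 19.7 ± 4.82 and 0.09 ± 0.21. The other direction held for Abcc4, at 0.19 ± 0.42 in cluster 5 and 2.91 ± 0.71 in clusters 3 and 4, with no overlap between libraries. Abcg2, at 3.51 ± 3.00 and 6.50 ± 1.41, overlapped. The 44 cells of MG2 that fell into cluster 5 had Abcc1 at 112 CPM (73.9 to 163, 27 UMIs), Abcb1b at 58.2 (31.8 to 97.6, 14 UMIs) and Abcc5 at 16.6 (4 UMIs), and no Abcb1a UMI. Clusters 3 and 4 were themselves unlike for Abcg2, with 91 UMIs (10.2 CPM) in cluster 3 and 9 (1.39) in cluster 4, and for Abcc4, with 39 (4.38) and 6 (0.93).

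Refits with and without these cells were chosen after the split had been seen, so their values are descriptions with no test. Without cluster 5, the log2 fold change of MT1 against MG1 was -2.37 for Abcb1b, -1.93 for Abcb1a, 0.63 for Abcc1 and -4.16 for Abcc3. For Abcc5 it was -6.20 against MG1 and -6.30 against MT2, but with 1 UMI left in MT1 these fitted values depend on the prior count. With cluster 5 alone, MT1 against MT2 gave 0.69 for Abcc5, -0.14 for Abcc1, -2.66 for Abcb1a and -3.60 for Abcb1b.

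**Figure D4:**
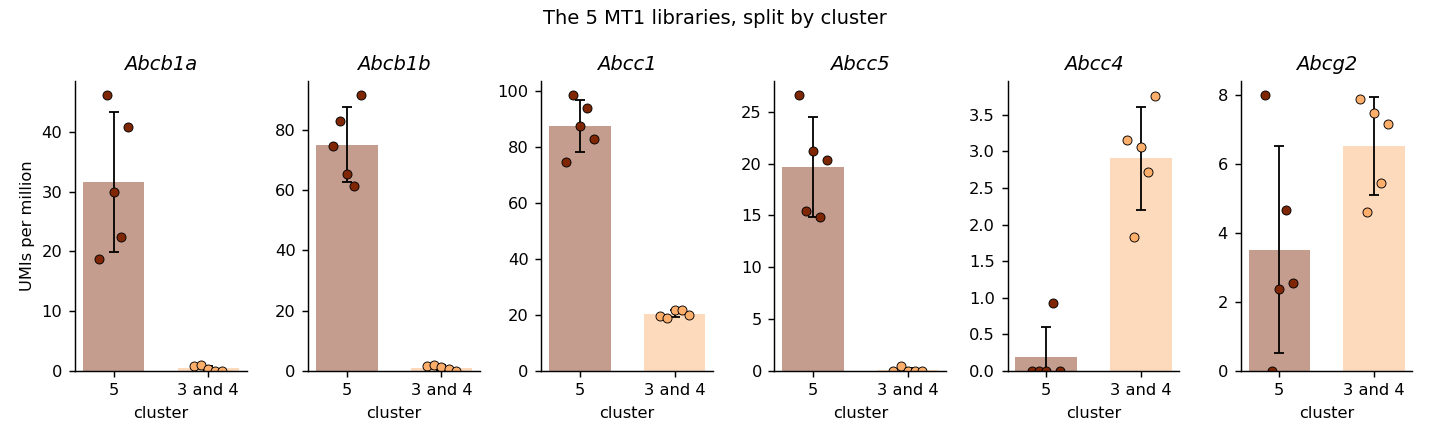
CPM of 6 members in the 5 MT1 libraries, in cluster 5 and in epithelial-like clusters 3 and 4 (horizontal axis). Points are libraries, bars means and error bars SD, and the vertical scales differ between genes. Abcb1a, Abcb1b, Abcc1 and Abcc5 are higher in cluster 5 in every library, and Abcc4 is higher in clusters 3 and 4.

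In MT2 both tumor clusters were rich in P-glycoprotein transcripts. Abcb1b was at 918 ± 21.4 CPM in cluster 1 (SD, n = 3 libraries) and at 706 ± 34.6 in cluster 2, and Abcb1a at 197 ± 6.37 and 155 ± 7.28. Cluster 1 was above cluster 2 in all libraries for both genes. At the finer resolution of 1.0 cluster 1 split, and one part of it (2312 cells) had Abcb1a at 154 CPM (145 to 164), against 157 in cluster 2. Abcg2 ran the other way, at 15.8 ± 1.82 in cluster 1 and 24.8 ± 2.39 in the dividing cluster 2. Abcc1 (96.4 ± 7.86 and 79.4 ± 9.58), Abcc4 (24.3 ± 2.95 and 20.7 ± 1.05) and Abcc5 (11.6 ± 0.94 and 10.4 ± 0.72) lay closer together.

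The stromal cells of MT2 also carried Abcb1b UMIs. It was at 285 CPM in 299 fibroblast-like, 274 in 46 endothelial-like and 310 in 174 immune-like cells, against 44.99 in fibroblast-like and 25.4 in endothelial-like cells of MG2. The libraries differed widely, at 119, 581 and 206 CPM in fibroblast-like and 123, 452 and 283 in immune-like cells, with MT2 replicate 2 highest in both. A UMI was seen in 35.5% of the fibroblast-like cells (median depth 2491) and 43.7% of the immune-like cells (median depth 2287), and no class of MT2 is certain to lack the gene. Whether RNA set free from tumor cells adds to these values was not tested. The ratio of Abcb1a to Abcb1b UMIs was 0.21 in cluster 1 and 0.22 in cluster 2, 0.13 in fibroblast-like, 0.24 in immune-like and 0.70 in endothelial-like cells, so it was not the same in every class.

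Abcb4 behaved apart from its neighbours. The immune-like cells of MT2 held 31 of its 120 UMIs, at 57.9 CPM, against 2.32 in cluster 1 and 1.96 in cluster 2. The libraries gave 19, 9 and 3 UMIs in 43, 65 and 66 immune-like cells, so that MT2 replicate 1 held most of them. Per 1000 Abcb1b UMIs there were 187 of Abcb4 in immune-like cells and 2.52 and 2.76 in clusters 1 and 2, so Abcb4 did not stand in 1 ratio to Abcb1b across classes.

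The genes around Abcb1a, Abcb1b and Abcb4 were followed because neighbours can move together. Of 32 RefSeq genes within 1 Mb, 15 had a row in the table and 9 were tested. In MT2 against MG2, 7 were called higher and 1 lower, where 32.8% and 34.2% of all genes were, with a median log2 fold change of 1.62 against -0.05 over all genes. In MT1 against MG1, 2 were called higher and 2 lower, where 32.2% and 27.1% of all genes were, with a median of 0.43 against 0.11. In MT1 against MT2, 8 of the 9 were called lower and none higher, where 33.1% and 35.3% of all genes were. Among those higher in MT2, Slc25a40, a mitochondrial carrier, went from 2.61 ± 0.71 CPM in MG2 (SD, n = 2) to 40.2 ± 2.85 in MT2 (n = 3). Dbf4, the activator of the Cdc7 replication kinase, went from 23.4 ± 0.86 to 202 ± 12.2, Tmem243 from 6.62 ± 2.93 to 44.5 ± 6.88, and Sri, the calcium-binding protein sorcin, from 70.0 ± 0.05 to 216 ± 39.1. Adam22 went from 0.36 ± 0.17 to 6.99 ± 1.49. The exception was Steap4, a metalloreductase, which fell from 40.9 ± 1.06 to 6.94 ± 1.43. Crot, the nearest tested gene downstream, had a log2 fold change of 1.01 in MT2, well under those of Abcb1a and Abcb1b.

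**Figure D5:**
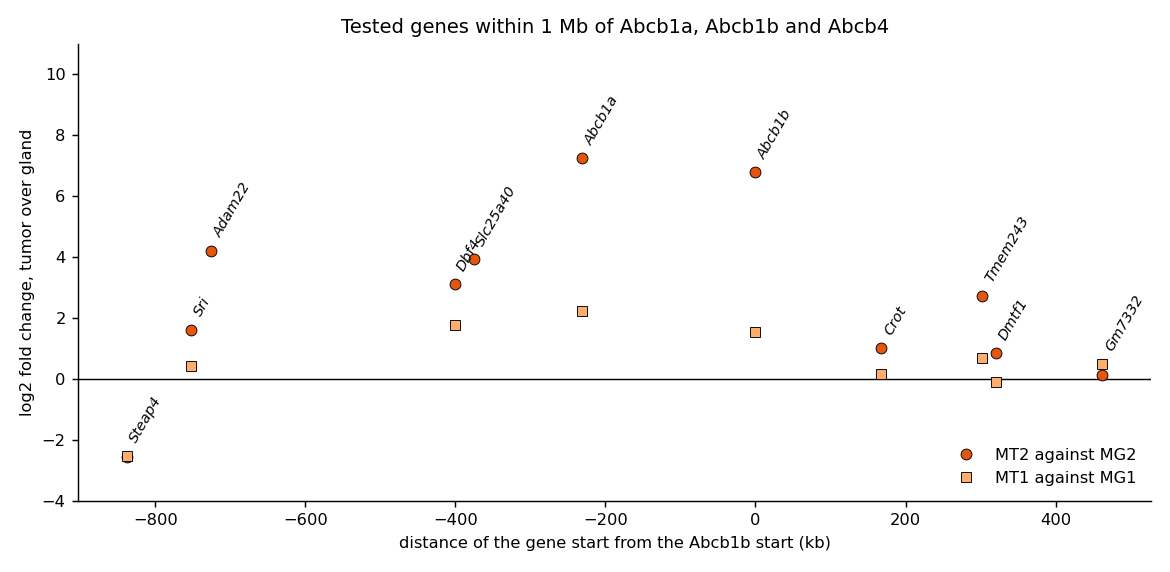
Log2 fold change from gland to tumor (vertical axis) for the tested genes within 1 Mb of Abcb1a, Abcb1b and Abcb4, against the distance of their start from that of Abcb1b in kb (horizontal axis). Circles are mouse 2 and squares mouse 1, and a square is left out where a group of mouse 1 had no UMI. Abcb1a and Abcb1b have the highest values in mouse 2, and Steap4 is the only gene below 0 there.

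Other genes of the pathway were taken from lists. Of 30 other ABC transporters, 17 were tested, and 2 were higher and 7 lower in MT1 than in MG1, and 4 higher and 7 lower in MT2 than in MG2. Over all genes these shares were 32.2% higher and 27.1% lower in MT1, and 32.8% and 34.2% in MT2. Those lower in both included Abcc8, the sulfonylurea receptor, which went from 43.5 ± 4.43 to 0.56 ± 0.59 CPM in mouse 1 (SD, n = 2 and 5) and from 13.98 ± 2.49 to 0 in mouse 2. Tap2, a subunit of the antigen peptide transporter, had log2 fold changes of -1.57 ± 0.17 in MT1 and -1.65 ± 0.16 in MT2. Its partner Tap1 rose in MT1 (1.60 ± 0.24) and fell in MT2 (-1.52 ± 0.20), and the lipid transporter gene Abca5 fell in MT1 (-3.00 ± 0.28) and rose in MT2 (0.70 ± 0.22). Abca2 (-1.24 ± 0.47 and -1.57 ± 0.38) and the surfactant lipid transporter Abca3 (-1.24 ± 0.36 and -4.77 ± 0.36) were lower in both tumors. Abcg1, a cholesterol exporter, was at 20.8 ± 2.16 CPM in MT1 and 1.18 ± 0.41 in MT2. In MT1 against MT2, 9 of the 17 were called higher and 4 lower, where 35.3% and 33.1% of all genes were.

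Of 11 genes known to regulate efflux pumps, 9 were tested, with 3 higher and 3 lower in MT1, and 4 higher and 5 lower in MT2. For these regulators and for the uptake carriers, the shares over all genes were 32.2% higher and 27.1% lower in MT1, and 32.8% and 34.2% in MT2. Ybx1, a Y-box protein known to bind CCAAT letters, was higher in both tumors, by a log2 fold change of 1.18 ± 0.20 in MT1 and 1.61 ± 0.22 in MT2. Hif1a, the hypoxia factor, fell in MT1 from 198 ± 15.1 to 60.8 ± 4.60 CPM and rose in MT2 from 178 ± 12.2 to 532 ± 20.8. Pgr, the progesterone receptor, fell from 131 ± 50.2 to 1.75 ± 0.92 in mouse 1 and from 74.6 ± 11.7 to 0.07 ± 0.07 in mouse 2. Esr1, the estrogen receptor, was lower in both (-2.75 ± 0.22 in MT1 and -5.05 ± 0.23 in MT2). Foxo3 was slightly higher in both (0.62 ± 0.19 and 0.43 ± 0.17), while Trp53 was higher in MT1 (1.33 ± 0.18) and lower in MT2 (-2.25 ± 0.16). Of 10 uptake carriers, all were tested, with 3 higher and 4 lower in MT1 and 2 higher and 6 lower in MT2. Slco4a1, an organic anion carrier, was at 0 in MG1 and 6.26 ± 0.97 CPM in MT1, and rose from 0.71 ± 0.66 in MG2 to 41.3 ± 2.00 in MT2. Slc22a5, the carnitine carrier, had log2 fold changes of -2.37 ± 0.38 in MT1 and -2.23 ± 0.29 in MT2. Also lower in both tumors were Slc22a4 (-1.12 ± 0.21 and -0.71 ± 0.18), the prostaglandin carrier Slco2a1 (-1.97 ± 0.16 and -1.42 ± 0.18) and Slc22a18 (-2.10 ± 0.55 in MT1, and no UMI in MT2). Slc19a1, the reduced folate carrier, was at 0 in MG1 and rose in MT2 by 1.32 ± 0.34. The nucleoside carrier Slc29a1 fell in MT2 (-0.65 ± 0.20), and its value in MT1 was 0.52 ± 0.23 (edgeR adjusted p = 0.0535).

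Over 53 sums of a library and class with at least 20 cells, the levels on a log2 scale with 1 added were most like those of other genes as follows, as a description over points that share libraries. For Abcb1a these were Rasa4 (Pearson's r 0.88), Ap1s2 (0.83) and 4930503L19Rik (0.82), and for Abcb1b Zrsr2 (0.84), Prune2 (0.83) and Lce1g (0.83). Abcb4 was most like Ccr1, Atp6v0d2 and Clec4d (each 0.93), genes known from myeloid cells and osteoclasts. Abcc1 was closest to Rab11fip5 (0.80), Ptgfrn (0.80) and Ltbp1 (0.80). For Abcc3 they were Epgn (0.74), Nek7 (0.73) and Eml5 (0.72), for Abcc4 Ch25h (0.72), Rgcc (0.67) and Nr5a2 (0.65), and for Abcc5 Ppp3ca (0.72), Lrp12 (0.68) and Arl6ip5 (0.67). Abcg2 was most like Egfl7 (0.65), Erg (0.65) and Stc1 (0.65), of which Egfl7 and Erg are endothelial genes.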

How the data were processed

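Per the study's methods and the labels, the authors processed reads with Drop-seq tools and aligned them with STAR to GRCm38.p6, and the deposited table holds their unnormalised UMI counts (genes by cells), with cells already filtered. How reads that match several genes were treated is not given in the sources used here. Cells were assigned to libraries by the suffix of their column names, and groups came from the labels. Cells were normalised to their total and clustered with scanpy 1.11.5 (3000 variable genes without the members, 30 components, 20 neighbours, Leiden resolution 0.6), and clusters were named from marker lists. A doublet caller marked only 0.208% of cells and was not relied on. Instead, the 5% of cells with the highest scores were left out as an alternative. UMI counts were summed per library over cells outside the stromal clusters and tested with edgeR 4.0.16 (quasi-likelihood, TMM, filter on low counts, Benjamini-Hochberg over all genes tested), with DESeq2 1.42.0 as an alternative. SE is the log2 fold change over the root of F. Poisson and shares' intervals are at 95%. Named genes were the 8 members, with other genes named from lists when called the same way in both mice or among the 3 lowest adjusted p of a list. The members and lists were chosen with earlier results of these data known. Thinning, other clusterings and each library left out were tried. Up to 7 cell barcodes were shared by a pair of libraries.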

Additional observations from a re-analysis of the deposited data

Results flagged for a closer look

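The change from gland to tumor differed between the mice, by edgeR's interaction test, for 5 members. The difference of the log2 fold changes (mouse 1 minus mouse 2) was -5.04 for Abcb1a, -5.25 for Abcb1b, -3.70 for Abcc3, -3.42 for Abcc4 and -2.32 for Abcc5. The value for Abcc4 depends on 4 UMIs in gland cells that clustered with tumor cells. With 1 mouse behind each change, a difference between mice and a difference between the tumors cannot be told apart. No MT1 library lay apart from the other 4 for the 7 members with UMIs in MT1, by Dixon's ratio against a critical value of 0.71.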

How the results depend on the processing

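Of the member values recomputed under alternatives, 141 of 155 kept direction and call for MT1 against MG1, 132 of 142 for MT2 against MG2, 128 of 149 for their difference, 154 of 156 for MT1 against MT2 and 32 of 35 for the paired fit. Leaving out 1 library gave 2 to 5 members called for MT1 against MG1 and 3 to 7 for the difference, and values from -0.418 to 0.0510 for Abcg2 in MT1 against MG1 and from -4.27 to 2.60 for the Abcc4 difference. The paired fit called 0 genes with edgeR, but 1371 genes and 2 members with DESeq2. Signs turned for Abcb1a in MT1 against MG1 with all cells (-0.61), for Abcg2 with luminal gland cells only (0.17), without MG1 replicate 2 (0.0510) and, in the paired fit, with all cells (-0.20), and for the Abcc4 difference with luminal gland cells only (2.41), without gland cells in tumor clusters (2.63) and without MG1 replicate 1 (2.60). In refits chosen after seeing the data, leaving cluster 5 out of MT1 turned Abcb1a (-1.93), Abcb1b (-2.37) and Abcg2 (0.0565). Cluster 5 alone turned Abcc4 (-2.43) and Abcc5 (0.54) against MG1, the Abcc1 difference (0.61) and Abcc5 against MT2 (0.69), and left 3821 genes with a difference called. The cause was not tested beyond the cells each refit held. RLE size factors moved the median of all genes by -0.11 in MT1 against MG1 and -0.15 in the difference.

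Shares fell with thinning by construction. At 1000 UMIs they were, for MG2, MT1 and MT2, 0.047, 0.40 and 15.3% for Abcb1a, 0.76, 1.46 and 52.5% for Abcb1b, and 2.08, 3.10 and 8.37% for Abcc1, with 0.70% for Abcb1a and 1.04% for Abcc1 in MG1. At 500 UMIs they were 0.095, 0.29 and 7.86% for Abcb1a, 0.47, 0.66 and 32.5% for Abcb1b, and 0.95, 1.60 and 4.36% for Abcc1, with 0% for Abcb1a and 1.04% for Abcc1 in MG1. Abcb1a in cluster 1 of MT2 was 190 CPM at resolution 0.3, and Abcg2 in endothelial-like cells of MG2 was 215 without the top 5% of doublet scores. Resolution 0.3 merged basal-like with luminal secretory-like cells and gave no basal-like value. No paired analysis was possible by replicate number because the numbers only follow accession order. The pairing by mouse is the paired fit above. Few cells limit the gland values of mouse 1, where Abcb1a had 4, Abcb1b 15 and Abcc4 4 UMIs in 667 cells outside the stromal clusters.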
